A study of Mus musculus with 9 samples.

Results

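The cytosolic heat shock chaperones were described in the mediobasal hypothalamus (MBH) of mouse pups as 10 genes fixed by name: Hsf1, Hspa1a, Hspa1b, Hspa2, Hspa8, Dnajb1, Hsph1, Hsp90aa1, Hsp90ab1 and Hspb1. All 10 were among the 15340 genes tested, and they had 61 of the 119414 transcripts quantified. RNA was sequenced from wild-type C57Bl/6 male offspring at weaning, on postnatal day (P) 21. The CTRL group held 4 libraries, from offspring of dams that drank plain water. The Emul group held 5 libraries, from offspring of dams given water with 1% carboxymethyl cellulose (CMC) and 1% polysorbate 80 (P80), emulsifiers used in processed food, before mating and through gestation and lactation. The libraries came from 4 control litters and 5 litters of emulsifier-treated dams, so p-values measure the spread between litters. Total estimated counts ranged from 28245360 to 46067534 per library.

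Chaperones bind unfolded stretches of other proteins and help them fold, refold or be degraded. In the cytosol, Hsp70 proteins take up a substrate with the help of a J-domain partner, release it with the help of a nucleotide exchange factor, and can pass it on to Hsp90. Under heat or other stress, the transcription factor HSF1 binds heat shock elements in the promoters of the inducible members, whereas neurons hold large amounts of the constitutive members at all times.

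The groups differed little in these genes. Hspa1a, Hspa2 and Dnajb1 were lower in Emul and Hsp90aa1 was higher, each at an unadjusted p under 0.05 by limma-voom. These are 4 of 10 members, against 15.8% of all genes tested, with 3 lower, against 8.99%, and 1 higher, against 6.84%. The members were chosen with earlier results of these data known, so these shares are a description and not a test. None of the 10 had an adjusted p under 0.05 by limma-voom, which 0.117% of all genes did, nor by edgeR's quasi-likelihood test, while DESeq2 gave 2 of them, Dnajb1 and Hspa2. Their adjusted p-values from limma ran from 0.13 to 0.68. None passed the fold cutoff used here, an unadjusted p under 0.05 together with a change of over 1.5-fold (a log2 of 0.58), which 0.469% of all genes did. The paper describes its own threshold both as a p-value and as a false discovery rate. By limma-voom on all transcripts summed per gene, no member passed either reading. On the deposited gene table, described below, Hspa2 passed the reading as a p-value (log2 fold change 1.93, unadjusted p = 0.049, adjusted p = 0.37, limma). It also did so on a part of the transcripts (2.95, unadjusted p = 0.024, adjusted p = 0.27, limma-voom). With all transcripts, the 95% intervals of the 10 log2 fold changes lay between -0.39 and 0.51, all inside 1.5-fold. No member had groups without overlap, against 6.6% of all genes (3.8% with Emul lower and 2.8% with Emul higher). The median log2 fold change was -0.011 over the members, with 5 lower and 5 higher, and 0.0015 over all genes.

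**Figure D1:**
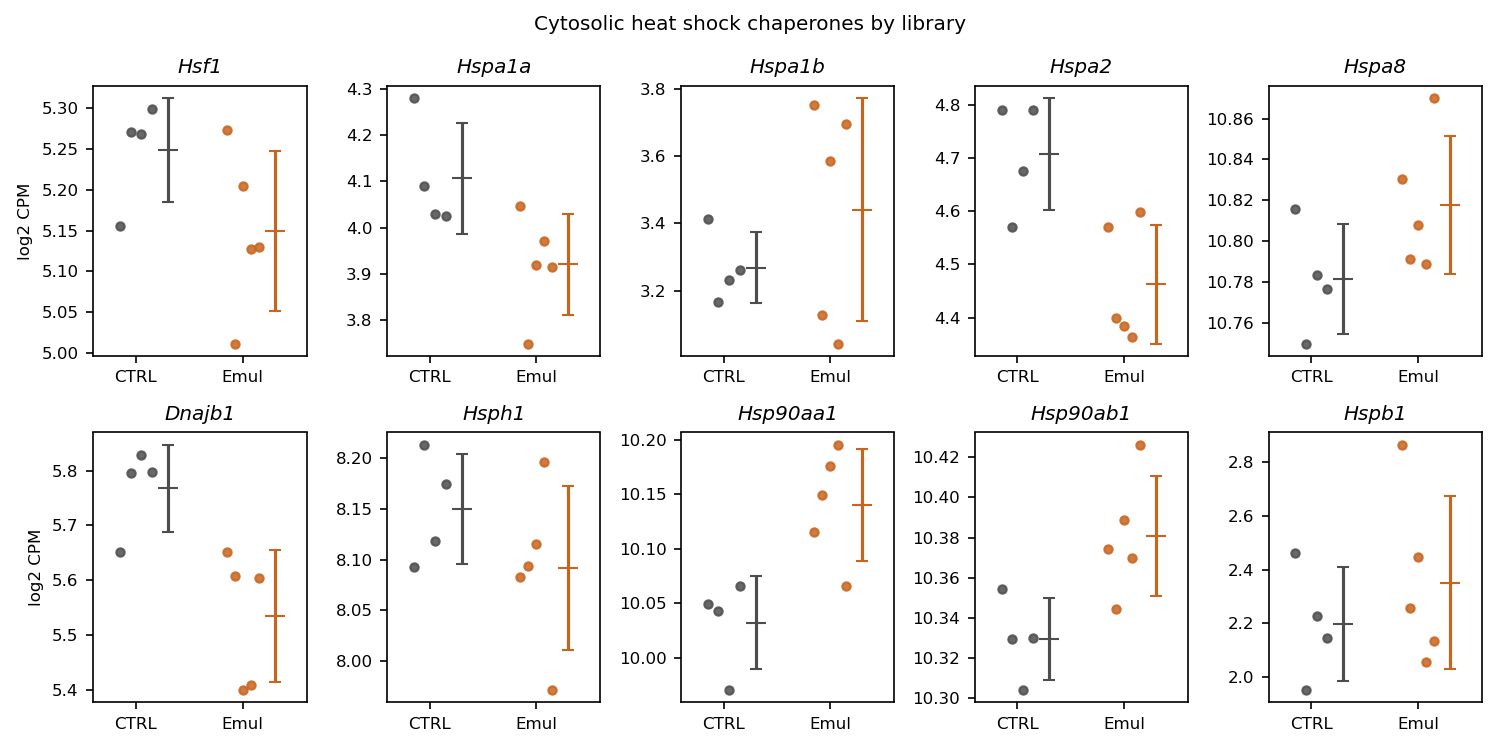
Log2 CPM (CPM, counts scaled to library size with TMM) of each of the 10 members, with 1 point per library and the mean and SD of each group beside the points (CTRL, n = 4; Emul, n = 5). The vertical axes differ between panels and do not start at 0. Emul values lie mostly below CTRL for Hspa1a, Hspa2 and Dnajb1 and mostly above it for Hsp90aa1, and the groups overlap in all 10 panels.

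Levels between genes were compared in TPM, which is per length. Hspa8 had the highest mean over the 9 libraries, 2104 TPM, followed by Hsp90ab1 at 1054 TPM and Hsp90aa1 at 968 TPM. These 3 genes held 92.0% to 93.7% of the members' summed TPM in every library. Hsph1 followed at 194 TPM, then Hsf1 at 44.0, Dnajb1 at 33.2, Hspa2 at 18.9, Hspb1 at 12.3, Hspa1a at 10.7 and Hspa1b at 7.34 TPM. The constitutive Hspa8 and Hsp90ab1 thus stood far above the inducible Hspa1a and Hspa1b. Levels did not follow that division throughout, since the more stress-responsive Hsp90aa1 was among the 3 highest and the inducible Dnajb1 was above Hspa2. Ranges over the libraries overlapped for the neighbours Hsp90ab1 and Hsp90aa1, Hsf1 and Dnajb1, Hspa2 and Hspb1, Hspb1 and Hspa1a, and Hspa1a and Hspa1b. Hspb1 was above Hspa1a in 7 of 9 libraries, and each of the other neighbouring pairs kept its order in all 9. The coefficient of variation over libraries was 3.60% to 4.33% for the 3 most abundant genes and reached 19.9% for Hspb1, the noisiest member. Over the 4 CTRL libraries the members' TPM summed to 4536 ± 60.7 (SD), and over the 5 Emul libraries to 4375 ± 170 (SD). The difference of -160.9 TPM became -90.4 TPM without Emul replicate 2. In TMM-scaled log2 CPM, Hspa8, Hsp90ab1 and Hsp90aa1, which make up most of the sum, all had estimates above 0 (0.04, 0.05 and 0.11). Hsph1, Hsf1, Dnajb1, Hspa2 and Hspa1a were lower in Emul on both scales. No sum was formed in CPM, and the cause of the difference in direction was not tested.

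RefSeq promoters (GRCm38, 250 bases before to 50 bases after the start) were at hand for Hspa1a, Hspa1b, Hspa2, Dnajb1, Hsph1 and Hspb1, with 2 starts each for Dnajb1 and Hsph1. They were searched for the paired heat shock units GAANNTTC and TTCNNGAA, each of which reads the same on both strands. A match was present for 4 of these 6 genes (Hspa1a, Hspa1b, Hsph1 and Hspb1) and in 15.1% of 32851 promoters of the same length. The letters were not in the windows of Dnajb1 or Hspa2. The stretches below, read along the gene's strand with the matches in capitals, show the paired units found and how alike the Hspa1a and Hspa1b promoters are. Binding of HSF1 to them was not tested.
Hspa1a, chr17:34972227-34972306, minus strand: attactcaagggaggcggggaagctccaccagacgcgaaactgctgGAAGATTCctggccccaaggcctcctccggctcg
Hspa1b, chr17:34959309-34959388, minus strand: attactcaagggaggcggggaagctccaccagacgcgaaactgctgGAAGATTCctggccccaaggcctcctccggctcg
Hspb1, chr5:135887769-135887848, plus strand: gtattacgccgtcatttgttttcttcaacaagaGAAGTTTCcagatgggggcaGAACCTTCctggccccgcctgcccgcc
Hsph1, chr5:149636337-149636416, minus strand: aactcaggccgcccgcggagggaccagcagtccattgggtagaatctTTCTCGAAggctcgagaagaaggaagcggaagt
The match began 104 bases before the start in both Hspa1a and Hspa1b, at 117 and 97 bases before it in Hspb1, and 33 bases before it in Hsph1. Over 300 bases the Hspa1a and Hspa1b promoters differed at 4 bases, none of them in the 80 bases shown. Past its start, Hsph1 held 2 more matches that overlap to form a 3-unit element, a pattern present in 0.603% of promoters. Of the 4 genes with a match, only Hspa1a differed between the groups at an unadjusted p under 0.05 by limma.

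Hsf1 (chr15:76477422-76501913, plus strand, GRCm38) encodes the factor that switches on the heat shock response. Its log2 CPM in CTRL was 5.16, 5.27, 5.27 and 5.30, and in Emul 5.27, 5.01, 5.21, 5.13 and 5.13. Emul values spread below and into the CTRL range. The log2 fold change was -0.10 ± 0.053 (SE), with an adjusted p of 0.38 by limma-voom.

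Hspa1a and Hspa1b are neighbouring, near-identical genes for the stress-inducible Hsp70. Hspa1a (chr17:34969190-34972156, minus strand) had a log2 CPM of 4.28, 4.09, 4.03 and 4.03 in CTRL and of 4.05, 3.75, 3.92, 3.97 and 3.91 in Emul. Only Emul replicate 1 reached into the CTRL range. Emul stood at 0.878-fold, a log2 fold change of -0.19 ± 0.071 (SE, unadjusted p = 0.021, adjusted p = 0.23, limma-voom). Without CTRL replicate 1 it was -0.13 (unadjusted p = 0.085, adjusted p = 0.43, limma-voom), and without Emul replicate 2 it was -0.14 (unadjusted p = 0.052, adjusted p = 0.32, limma-voom). Hspa1b (chr17:34956436-34959238, minus strand) had a log2 CPM of 3.41, 3.17, 3.23 and 3.26 in CTRL and of 3.75, 3.13, 3.59, 3.04 and 3.70 in Emul. Of its Emul libraries 3 lay above and 2 below all CTRL libraries, and the estimate for Emul over CTRL was 0.15 ± 0.15 in log2 units (SE, limma-voom, adjusted p = 0.65). The transcripts of this pair share 1873 of the 2937 31-base words of Hspa1a-201 (63.8%), so the split of reads between them is uncertain. Counted as 1 feature, they differed by -0.05 ± 0.085 (SE) on the log2 scale (unadjusted p = 0.58, adjusted p = 0.82, limma-voom). Gm20481, annotated on the opposite strand across Hspa1a, had 0 estimated counts in every library.

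Hspa8 (chr9:40800984-40810087, plus strand) encodes Hsc70, the constitutive Hsp70 of the cytosol. Log2 CPM was 10.82, 10.75, 10.78 and 10.78 in CTRL and 10.83, 10.79, 10.81, 10.79 and 10.87 in Emul. The log2 fold change of 0.04 had a 95% interval from -0.02 to 0.09 (adjusted p = 0.52, limma-voom). Its transcript Hspa8-202, with 47.9% of the counts on average, was higher without overlap (0.08 ± 0.025, SE, unadjusted p = 0.011, adjusted p = 0.37, limma-voom). Hspa8-201, with 44.0%, was at 0.002 with overlap (adjusted p = 0.99, limma-voom).

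Hspa2 (chr12:76404176-76406938, plus strand) encodes an Hsp70 best known from male germ cells that is also made in brain. Its log2 CPM was 4.79, 4.57, 4.68 and 4.79 in CTRL and 4.57, 4.40, 4.38, 4.36 and 4.60 in Emul. Emul replicates 1 and 5 met the lowest CTRL library, and the other 3 lay below all CTRL libraries. Emul stood at 0.841-fold, a log2 fold change of -0.25 ± 0.066 (SE, unadjusted p = 0.0025, adjusted p = 0.14, limma-voom) and the largest estimate among the members. It stayed at an unadjusted p under 0.05 with each of the 9 libraries left out in turn, between -0.30 and -0.22.

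The direction of the Hspa2 estimate depended on which transcripts were summed, and Hspa2-201 had few counts and overlapping groups. Both transcripts of Hspa2 carry the same coding sequence, chr12:76404534-76406432. Hspa2-202 is 1 unspliced exon (chr12:76404409-76406934), and Hspa2-201 has a separate untranslated first exon (chr12:76404176-76404289) spliced to a second (chr12:76404529-76406938). Their 31-base words are 95.4% shared, which leaves 115 words to Hspa2-201 alone and 117 to Hspa2-202. The split of reads between the transcripts is thus uncertain. Hspa2-202 held 94.5% to 100% of the gene's estimated counts, with 1022, 976, 710 and 1192 counts in CTRL and 898, 834, 744, 913 and 858 in Emul. In TMM-scaled log2 CPM it stood at 4.70 ± 0.0999 (SD, n = 4) in CTRL, and Emul stood at 4.43 ± 0.124 (SD, n = 5). CTRL replicate 2 (4.58) and Emul replicate 5 (4.59) overlapped, and the log2 fold change was -0.28 ± 0.078 (SE, unadjusted p = 0.0056, adjusted p = 0.32, limma-voom). In CPM scaled by library size alone, the groups, at 26.0 ± 1.68 (SD, n = 4) and 21.03 ± 1.76 (SD, n = 5), did not overlap (two-sided exact permutation p = 0.016). With library size alone, genes as a whole leaned lower in Emul (median log2 fold change -0.029, against 0.0015 with TMM). The share of all transcripts without overlap was not counted on that scale. Hspa2-201 had 35.8, 0, 17.6 and 0 counts in CTRL and 38.8, 39.5, 43.2, 17.8 and 17.1 in Emul. In the same CPM that was 0.391 ± 0.469 (SD, n = 4) against 0.779 ± 0.331 (SD, n = 5), with overlap (exact permutation p = 0.21).

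**Figure D2:**
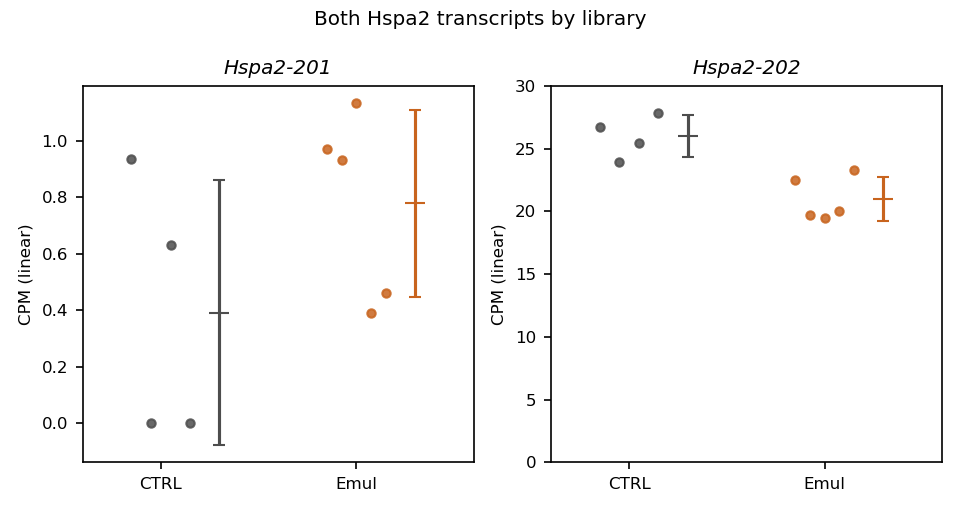
CPM, scaled by library size alone and on a linear scale, of Hspa2-201 (left) and Hspa2-202 (right), with 1 point per library and the mean and SD of each group beside the points (CTRL, n = 4; Emul, n = 5). The vertical scales differ. Hspa2-201 is at 1.13 CPM or less in every library and at 0 in 2 CTRL libraries, and Hspa2-202 lies between 19.5 and 27.8 CPM, higher in CTRL.

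The deposited gene table of log2 CPM follows Hspa2-201. Its Hspa2 row read 0.09, -4.17, -0.48 and -4.17 in CTRL and 0.16, 0.11, 0.37, -1.06 and -0.83 in Emul, and the 2 lowest values belong to the libraries in which Hspa2-201 had 0 counts. Fitted on that table, the log2 fold change of Hspa2 was 1.93 (unadjusted p = 0.049, adjusted p = 0.37, limma), higher in Emul and past the fold cutoff, and the exact permutation p of the same row was 0.13. That table was matched closely by summing only transcripts whose Ensembl number is below 195900. On those transcripts alone the estimate for Hspa2 was 2.95 (unadjusted p = 0.024, adjusted p = 0.27, limma-voom), a value that depends on how the libraries at 0 are treated. The same selection kept 0% of the counts of Hsf1, which has no row in the table, 19.7% to 32.5% of Hsph1, 93.4% to 96.4% of Dnajb1 and nearly all or all counts of the other 6 members. For Dnajb1, Hspa1a and Hsp90aa1 the estimates barely moved.

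**Figure D3:**
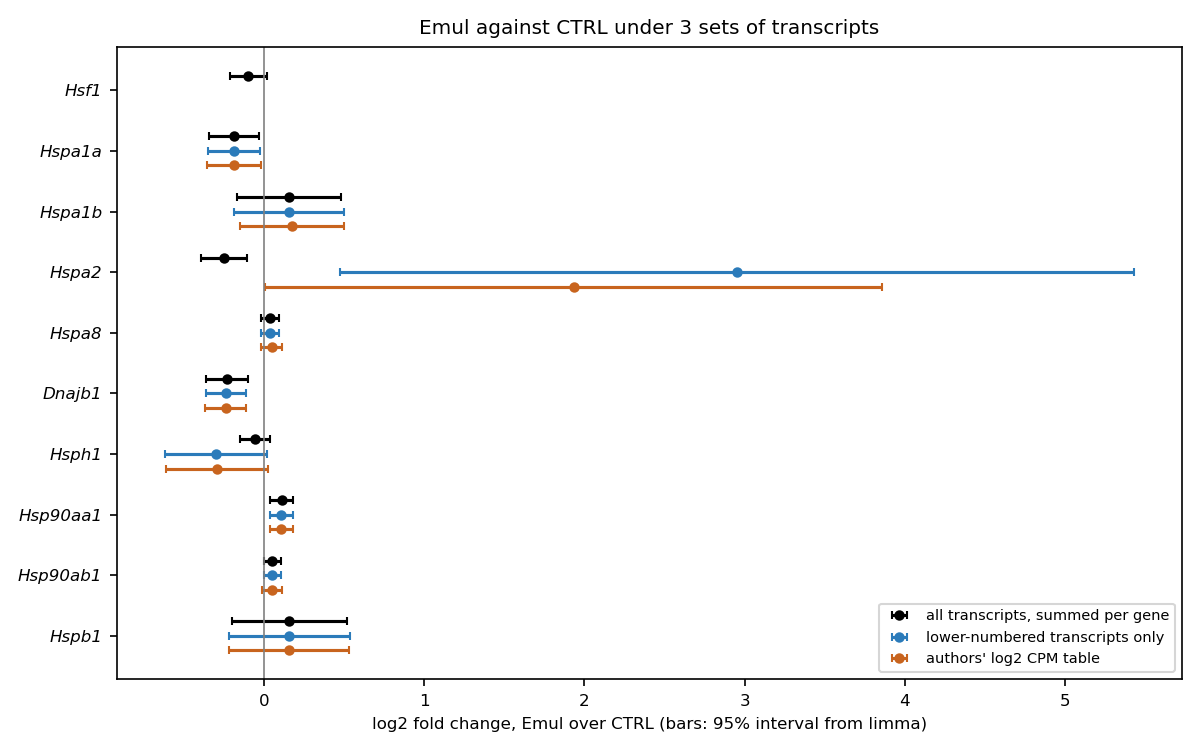
Log2 fold change of Emul over CTRL for each member, with its 95% interval from limma, from all transcripts summed per gene (black), from lower-numbered transcripts only (blue) and from the authors' log2 CPM table (orange). Hspa2 lies at -0.25, 2.95 and 1.93 in that order, Hsph1 at -0.06, -0.30 and -0.30, and Hsf1 has a value only from all transcripts.

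Dnajb1 (chr8:83608193-83612653, plus strand) encodes the inducible J-domain partner that hands substrates to Hsp70. Libraries stood at a log2 CPM of 5.65, 5.79, 5.83 and 5.80 in CTRL and of 5.65, 5.61, 5.40, 5.41 and 5.60 in Emul. CTRL replicate 1 and Emul replicate 1 met at the same level, and the remaining libraries were separate. Emul stood at 0.851-fold, a log2 fold change of -0.23 ± 0.060 (SE, unadjusted p = 0.0021, adjusted p = 0.13, limma-voom). It stayed at an unadjusted p under 0.05 with any 1 library left out. Its main transcript, Dnajb1-201, was lower in Emul with no overlap (log2 fold change -0.23 ± 0.064, SE, adjusted p = 0.32, limma-voom).

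Hsph1 (chr5:149614287-149636376, minus strand) encodes Hsp105, a nucleotide exchange factor for Hsp70. The log2 CPM of the gene was 8.09, 8.21, 8.12 and 8.17 in CTRL and 8.08, 8.09, 8.12, 8.20 and 7.97 in Emul. The groups overlapped, and Emul had a log2 fold change of -0.06 ± 0.042 over CTRL (SE, limma-voom, adjusted p = 0.54). Within the gene, transcripts differed in both directions. Over all members, 34 transcripts were tested, of which 7 were lower and 6 higher in Emul at an unadjusted p under 0.05 by limma-voom, against 5.93% and 4.87% of all transcripts. None of the 39664 transcripts tested had an adjusted p under 0.05 by limma-voom, while 4285 had an unadjusted one.

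The largest difference among the Hsph1 transcripts was in Hsph1-204, a non-coding transcript that keeps the 2781-base intron chr5:149620684-149623464. Its log2 CPM was 3.71, 4.42, 4.12 and 4.16 in CTRL and 3.02, 3.22, 2.52, 2.50 and 2.43 in Emul. Emul was lower without overlap. The groups did not overlap for 6 of the 34 member transcripts, against 4.66% of all transcripts. The log2 fold change was -1.37 ± 0.20 (SE, unadjusted p = 5.2e-05, adjusted p = 0.14, limma-voom), and the exact permutation p was 0.0079, the smallest that 4 against 5 libraries allow. Hsph1-204 held 6.04% ± 0.985 (SD, n = 4) of the gene's counts in CTRL, and Emul stood at 2.46% ± 0.645 (SD, n = 5). A second retained-intron transcript, Hsph1-210, was also lower without overlap (log2 fold change -1.04 ± 0.29, SE, adjusted p = 0.32, limma-voom), at no more than 87.4 counts in a library. The third, Hsph1-208, differed by -0.44 with overlap (unadjusted p = 0.045, adjusted p = 0.45, limma-voom). Of 9 retained-intron transcripts tested over all members, 4 were lower and 1, Hsp90aa1-205, was higher at an unadjusted p under 0.05 by limma-voom. Among the 4 lower were Hsph1-204, Hsph1-210 and Hsph1-208, which belong to 1 gene and are not independent. Of all retained-intron transcripts tested, 10.4% were lower and 3.79% higher at an unadjusted p under 0.05, 5.18% were lower without overlap, and the median log2 fold change over these 7991 was -0.062. Such transcripts took 4.61% ± 0.098 (SD, n = 4) of all counts in CTRL, and Emul stood at 4.40% ± 0.19 (SD, n = 5) (exact permutation p = 0.071). The part of this wider difference in the Hsph1 result was not tested.

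The intron lies next to exon 12 of 18 of Hsph1-211, a cassette exon of 132 bases, or 44 codons (chr5:149623465-149623596). Hsph1-205, Hsph1-209 and Hsph1-211 hold it and Hsph1-201 skips it. In textbook terms, Hsp105 exists as a constitutive long form and a shorter form, without this segment, that cells make on mild heat shock. The transcript sequences are shown with the exon in capitals between 15 bases on each side.
Hsph1-211: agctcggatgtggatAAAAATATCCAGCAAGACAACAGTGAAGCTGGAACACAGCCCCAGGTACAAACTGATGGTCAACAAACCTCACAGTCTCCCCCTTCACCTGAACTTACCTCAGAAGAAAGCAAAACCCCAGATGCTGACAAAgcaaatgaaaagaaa
Hsph1-201: agctcggatgtggatgcaaatgaaaagaaa
The share of coding Hsph1 counts without the exon was 30.6%, 34.4%, 26.6% and 36.5% in CTRL and 21.2%, 26.6%, 25.2%, 31.9% and 24.4% in Emul. The means were 32.0% ± 4.40 (SD, n = 4) and 25.9% ± 3.91 (SD, n = 5), the ranges overlapped, and the exact permutation p was 0.071. Hsph1-201 shares 3180 of its 3210 31-base words with Hsph1-211 (99.1%), so the split of reads between them is uncertain. Hsph1-211 was higher in Emul (log2 fold change 0.28 ± 0.099, SE, unadjusted p = 0.020, adjusted p = 0.40, limma-voom), and its log2 CPM ran from 6.53 to 7.02 in CTRL and from 6.83 to 7.18 in Emul. Hsph1-205, which also holds the exon, was higher without overlap at 43.2 to 185 counts per library (0.49 ± 0.21, SE, adjusted p = 0.45, limma-voom). Hsph1-201 differed by -0.30 ± 0.15 (SE) and Hsph1-209, which holds the exon, by -0.07, with adjusted p-values of 0.51 and 0.88 by limma-voom. Of the transcripts of Hsph1, Hsph1-201 is the only lower-numbered one. Shares were tested for transcripts that held at least 5% of their gene's counts on average. Of these 18 shares over all members, none had an adjusted p under 0.05 (smallest 0.36, exact permutation test), while 1 had an unadjusted one, that of Hsf1-204. That minimum leaves out Hsph1-204, Hsph1-210 and Hsph1-205, whose shares did not overlap between the groups (unadjusted exact permutation p = 0.0079, 0.0079 and 0.016, singled out after their values were seen).

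**Figure D4:**
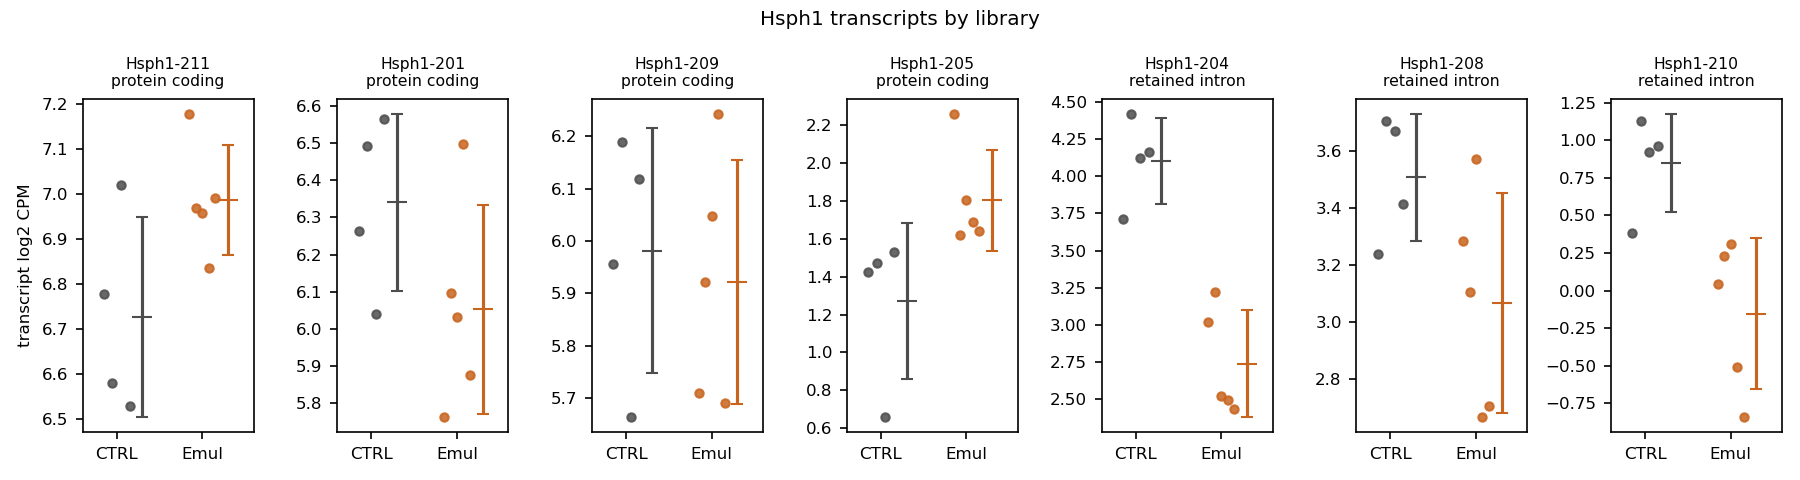
Log2 CPM of the 7 Hsph1 transcripts tested, with 1 point per library and the mean and SD of each group beside the points (CTRL, n = 4; Emul, n = 5). Vertical axes differ and do not start at 0. The retained-intron transcripts Hsph1-204 and Hsph1-210 are lower in all Emul libraries, Hsph1-205 is higher in all of them, and the groups overlap in the other 4 panels.

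Hsp90aa1 and Hsp90ab1 encode both cytosolic Hsp90 proteins, the first more stress-responsive and the second constitutive. Hsp90aa1 (chr12:110690605-110702728, minus strand) had a log2 CPM of 10.05, 10.04, 9.97 and 10.07 in CTRL and of 10.12, 10.15, 10.18, 10.20 and 10.07 in Emul. Emul replicate 5 met the highest CTRL library, and the other 4 lay above all of them. Emul stood at 1.08-fold, a log2 fold change of 0.11 ± 0.032 (SE, unadjusted p = 0.0052, adjusted p = 0.17, limma-voom), and it stayed at an unadjusted p under 0.05 with any 1 library left out. In TPM, Hsp90aa1 was nearly level between the groups, at 949 to 977 in CTRL and 895 to 1031 in Emul. Its transcript Hsp90aa1-202 was higher without overlap (0.19 ± 0.037, SE, adjusted p = 0.24, limma-voom), and Hsp90aa1-201, with 69.4% to 73.8% of the counts, was at 0.08 with overlap (adjusted p = 0.48, limma-voom). The retained-intron transcript Hsp90aa1-205, at 99.3 to 592 counts per library, was higher with overlap (0.78 ± 0.30, SE, unadjusted p = 0.027, adjusted p = 0.41, limma-voom). Hsp90ab1 (chr17:45567775-45573271, minus strand) had a log2 CPM of 10.35, 10.33, 10.30 and 10.33 in CTRL and of 10.37, 10.34, 10.39, 10.37 and 10.43 in Emul. Its log2 fold change was 0.05 ± 0.024 (SE, unadjusted p = 0.057, adjusted p = 0.33, limma-voom).

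Hspb1 (chr5:135887919-135889563, plus strand) encodes Hsp25, a small heat shock protein that holds unfolded proteins without ATP. Its log2 CPM was 2.46, 1.95, 2.23 and 2.15 in CTRL and 2.86, 2.26, 2.45, 2.05 and 2.13 in Emul, on 132 to 286 counts per library. The groups overlapped broadly, and the estimate was 0.16 ± 0.16 on the log2 scale (SE, adjusted p = 0.68, limma-voom). Its 95% interval, from -0.20 to 0.51, was the widest of the members.

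The libraries also differed in other genes beside these results. Of 6 oligodendrocyte markers, 5 were lower in Emul at an unadjusted p under 0.05 by limma, and their summed level was 12282 to 15478 TPM in CTRL and 9200 to 12860 TPM in Emul. Of 5 astrocyte markers, 1 was lower (sum 853 to 887 TPM in CTRL, 678 to 805 TPM in Emul). Of 8 immediate early genes, which report recent neuronal activity, 4 were lower (sum 168 to 225 TPM against 89.4 to 166 TPM). Of 6 neuronal markers, 4 were higher and 1 lower. Of 4 thalamic markers, 1, Rora, was higher, and their sums were 56.9 to 77.8 TPM in CTRL and 51.8 to 147 TPM in Emul, with Tcf7l2 at 60.3 TPM in Emul replicate 3 and at 13.9 to 33.1 TPM in the other libraries. Without Emul replicate 3, Hspa1a, Hspa2, Dnajb1 and Hsp90aa1 kept an unadjusted p under 0.05 by limma-voom. That fit does not decide the part of thalamic RNA, since other Emul libraries also differed in Tcf7l2. Emul replicates 1 (33.1 TPM) and 2 (27.9 TPM) were above all CTRL libraries (at most 26.9 TPM), and Emul replicates 4 and 5 were not. Mitochondrially encoded genes took 5.01% ± 0.463 (SD, n = 4) of counts in CTRL and 6.22% ± 0.379 (SD, n = 5) in Emul. Of the 10 markers of the MBH, 9 were tested and none differed, with sums of 461 to 501 TPM and 409 to 625 TPM. No marker list had a defining gene at a median of 0. In bulk RNA, fewer cells of a type and less RNA per cell cannot be told apart, and the part of these differences in the chaperone results was not tested.

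Partner genes, also chosen with earlier results known, were 71 genes in 9 lists by role, of which 66 were tested. At an unadjusted p under 0.05 by limma-voom, 6 were lower and 11 higher in Emul, against 8.99% and 6.84% of all genes. By sign, 18 were lower and 48 higher, the median log2 fold change was 0.039 (0.0015 over all genes), and none had an adjusted p under 0.05 by limma-voom (smallest 0.10) or by edgeR. DESeq2 gave 4, which were Hsf2 (lower) and Hspa5, Dnajb9 and Dnajb6 (higher). The groups did not overlap for 10 of the 66, against 6.6% of all genes. Of these, Hsf2 and Hspb8 were lower, and Dnaja2, Dnajb6, Cdc37, Hspa5, Hsp90b1, Dnajb9, Stip1 and Ahsa1 were higher. Stip1, which joins Hsp70 to Hsp90, and Ahsa1, which activates Hsp90, were named after their values were seen, since neither had an unadjusted p under 0.05 by limma-voom (0.06 and 0.05 on the log2 scale, adjusted p = 0.36 and 0.44).

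Among the 5 heat shock factors and regulators tested, Hsf2, a factor that pairs with HSF1, had a log2 CPM of 5.20, 5.27, 5.36 and 5.26 in CTRL and of 5.10, 5.15, 5.02, 5.07 and 5.05 in Emul. The groups did not overlap, and the estimate was -0.19 ± 0.042 on the log2 scale (SE, adjusted p = 0.10, limma-voom). Hsbp1, a protein that binds HSF1 and restrains it, was higher at 0.12 (adjusted p = 0.19, limma-voom). Of the other 6 Hsp70 and Hsp110 genes, Hspa12a was higher at 0.10 and no other differed at that level.

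Among 9 Hsp70 cochaperones, Bag3, the HSF1 target that links Hsp70 to selective autophagy, was the only one at an unadjusted p under 0.05 by limma-voom. Bag3 had a log2 CPM of 3.85, 3.64, 3.50 and 3.94 in CTRL and of 3.42, 3.46, 3.42, 3.35 and 3.71 in Emul. Emul replicate 5 lay within the CTRL range, and the estimate was -0.29 ± 0.095 on the log2 scale (SE, adjusted p = 0.19, limma-voom). Among 3 small heat shock proteins tested besides Hspb1 (median -0.15), Cryab (αB-crystallin, abundant in oligodendrocytes) was lower at -0.22 and Hspb8, the partner of Bag3, was lower at -0.15 without overlap, with adjusted p-values of 0.23 and 0.25 by limma-voom. Of 9 J-domain proteins, Dnajb2 (-0.09) and Dnajb5 (-0.11) were lower, Dnaja2 (0.08) and Dnajb6 (0.11) were higher, and the largest estimate, that of Dnaja4, was -0.11 at an unadjusted p of 0.051 by limma.

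Of 12 Hsp90 cochaperones, Cdc37, which brings kinases to Hsp90, was higher at 0.08, as were Sugt1 at 0.08 and Ppid at 0.07. Fkbp5, the glucocorticoid-induced partner of Hsp90, had the largest estimate there, 0.31 ± 0.16 (SE), with an adjusted p of 0.37 by limma-voom. None of the 8 subunits of the chaperonin TRiC differed, and the largest estimate was 0.05 for Cct4. Of 6 mitochondrial chaperones, Grpel1, the exchange factor for mitochondrial Hsp70, was higher at 0.11. All 8 ER chaperones had estimates above 0 (median 0.095), and 3 were higher without overlap. These were Hspa5 (BiP, the Hsp70 of the ER) at 0.15 ± 0.033 (SE), Dnajb9 at 0.14 and Hsp90b1, the Hsp90 of the ER, at 0.10, with adjusted p-values of 0.10, 0.11 and 0.19 by limma-voom.

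**Figure D5:**
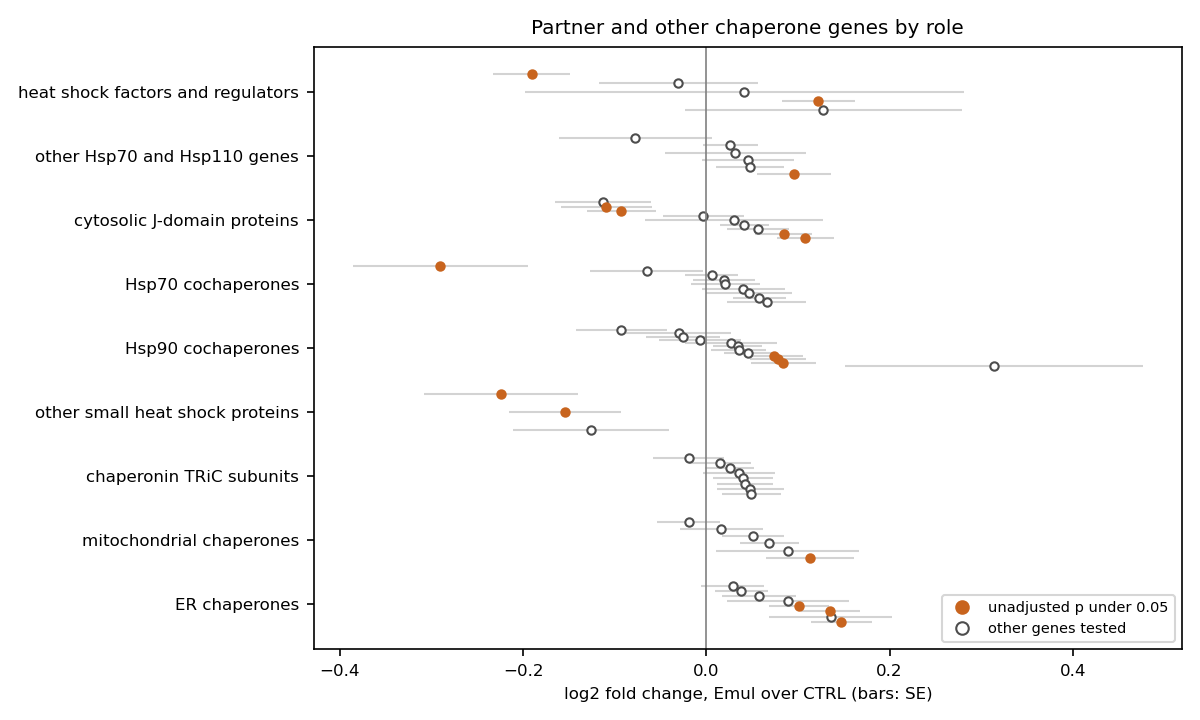
Log2 fold change of Emul over CTRL, with SE, for the 66 partner and other chaperone genes tested, 1 point per gene, by role. Filled points have an unadjusted p under 0.05 by limma-voom (6 lower, 11 higher), and open points do not. ER chaperones all lie above 0, and the 3 small heat shock proteins all lie below it.

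Across the 9 libraries, Hsph1 and Hspa8 varied in opposite directions (log2 CPM, Pearson's r = -0.92, exact permutation p = 0.00061, adjusted p = 0.0055 over 9 pairs, and Spearman's rho = -0.93, exact permutation p = 0.00075, adjusted p = 0.0067). With the group means removed, r was -0.90. Without CTRL replicate 2 and Emul replicate 5, the libraries farthest from the median of Hsph1, r was -0.68 (exact permutation p = 0.097), so the relation rests in part on those libraries. None of the other 8 members had an adjusted p under 0.05 with Hsph1, and the next was Hspa1b (r = -0.72, exact permutation p = 0.026, adjusted p = 0.12). With the group means removed, the order differed. Hsp90aa1 (r = 0.77) and Hspa2 (r = -0.75) then followed Hspa8, ahead of Hspa1b (r = -0.67). Before that removal Hsp90aa1 and Hspa2 were at 0.10 and -0.09. These values were not tested. Of all genes tested, those most like Hsph1 in log2 CPM over the 9 libraries were Cep97 (r = 0.98), Cep95 (0.95), Fam53b (0.95), Gzf1 (0.94) and Sclt1 (0.94). They were picked as the highest of many correlations over few libraries and were not tested. The share of all genes as strongly correlated with Hsph1 as Hspa8 was not counted here.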

How the data were processed

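Poly(A) RNA of 9 MBH samples was sequenced in paired-end mode. The authors quantified transcripts with kallisto 0.46.1 on mm10 and deposited estimated counts and TPM per transcript, as well as a gene table of log2 CPM values (14592 named rows). The submitters' processing notes also name FastQC 0.11.9 and edgeR 3.40.1. How transcripts were assigned to genes for that table, and whether kallisto used strand, is not given in the sources used here. Transcripts were matched to GENCODE M21 (97.8% matched, 1.20% to 1.27% of counts left out). Estimated counts were summed per gene without rounding, except for edgeR and DESeq2. The filter asked for CPM above 1 in 4 or more libraries. After TMM scaling, limma-voom (limma 3.58.1, edgeR 4.0.16, R 4.3.3) was fitted with the group as its only term, with Benjamini-Hochberg adjustment over all genes or transcripts tested. Log2 CPM values of single libraries used a prior count of 2. Exact permutation tests were two-sided over all 126 ways to assign 9 libraries to groups of 4 and 5, and over all orders of the libraries for correlations. Scripts were tested on simulated counts. The genes named are all members, the partner genes with an unadjusted p under 0.05 and the largest estimate of each list, and the 5 genes most like Hsph1. The members and lists were chosen with earlier results of these data known. Alternatives were DESeq2 1.42.0, edgeR's quasi-likelihood test, other scalings, filters and transcript sets, a replicate block and leaving out each library. No amino acid sequences, and no promoters of Hspa8, Hsp90aa1, Hsp90ab1 or Hsf1, were used here.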

Additional observations from a re-analysis of the deposited data

Results flagged for a closer look

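Of 84 groups of 4 or 5 libraries examined for the members' genes and transcripts, 5 had a library set apart from the rest of its group, where chance gives about 1 in 20 groups, or 4.2. Emul replicate 5 had a log2 CPM of 7.23 for Hspa8-203, against 6.99 to 7.04 in the other Emul libraries. For Hsph1-205, CTRL replicate 3 stood at 0.657, against 1.43 to 1.53, and Emul replicate 1 at 2.26, against 1.62 to 1.81. CTRL replicate 1 had 1.25 for Hsp90aa1-207, against 0.59 to 0.66. Emul replicate 2 had -1.33 for Hsf1-216, against -0.088 to 0.29. All 5 were single transcripts, and no member's summed level was among them.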

How the results depend on the processing

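Over 218 pairs of a member and an alternative setting, 205 kept their direction and their side of an unadjusted p of 0.05, 2 lost it, 8 gained it and 3 reversed. The 2 lost were those of Hspa1a without CTRL replicate 1 or Emul replicate 2. The reversals were Hspa2 on the authors' log2 CPM table (1.93) and on lower-numbered transcripts (2.95), where the selection keeps Hspa2-201 alone, and Hsph1 on protein-coding transcripts only (0.014, p = 0.75 by limma), a setting chosen after seeing the data that drops its retained-intron transcripts. On both of the first settings 1 member, Hspa2, passed the fold cutoff instead of 0. DESeq2 gave 2 members an adjusted p under 0.05, Dnajb1 (0.021) and Hspa2 (0.037), instead of 0, and over all genes 341 instead of 18. The cause was not tested. Partner genes at an unadjusted p under 0.05 numbered 17, but 11 on the authors' table. The difference in summed TPM without 1 library ranged from -195.9 to -90.4 TPM.

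Groups share replicate numbers, but same-numbered libraries did not deviate together (correlations -0.16, -0.015, 0.021 and -0.055), and none of the 4 CTRL libraries matched best with its own number. With a replicate block, partner genes at that p numbered 10 and genes with an adjusted p under 0.05 numbered 1. Genes past the fold cutoff numbered 72, but 683 without a filter on low counts and 185 with filterByExpr. Genes with an adjusted p under 0.05 ranged from 0 to 24 with 1 library left out, and numbered 60 with library size alone and 33 with edgeR. Members on few counts (Hspb1, Hspa1b) have wide intervals, and counts split between near-identical transcripts are estimates whose own error was not analysed here.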
